A study of Mus musculus with 16 samples.

Results

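The DNA replication and mitosis genes described here are 40 of the 17721 genes in a single-cell RNA-seq count table of the pubertal mouse mammary gland. They were listed by name, with earlier results of these data known. The 21 replication genes were Cdc6, Cdt1, Fen1, Gins2, Lig1, Mcm2, Mcm3, Mcm4, Mcm5, Mcm6, Mcm7, Pcna, Pola1, Pold1, Prim1, Rfc2, Rrm1, Rrm2, Tyms, Uhrf1 and Ung. The 19 mitosis genes were Aurka, Aurkb, Birc5, Bub1, Ccna2, Ccnb1, Ccnb2, Cdc20, Cdk1, Cenpe, Cenpf, Hmgb2, Kif11, Kif23, Mki67, Nusap1, Top2a, Tpx2 and Ube2c. The cells came from 16 dissected fragments of C57BL/6 glands. They comprised 4 nipple fragments, 6 duct fragments and 6 terminal end buds (TEBs), the bulbous growing tips of the ducts at puberty. The study's figure legends give mice of 5 weeks and the genotype K14-Cre/R26-mTmG, a Cre recombinase driven by the promoter of keratin 14, a basal cell keratin, with a fluorescent membrane reporter. Its methods give 5 to 6 weeks and either that genotype or wild type, and the labels name no genotype for any fragment. The labels name no mouse. Fragments may therefore share an animal, and the p-values below measure the spread between fragments. Every nipple label number begins with a digit that begins no duct or TEB label number. The labels do not say what the numbers stand for, so a grouping by that digit cannot be told apart from nipple.

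Cells that divide copy their DNA in S phase and separate it in mitosis, and the genes for each step are switched on in turn. Before S phase, Cdc6 and Cdt1 load the ring-shaped helicase made of Mcm2 to Mcm7 on DNA, and Gins2 belongs to the complex that makes this helicase active. Prim1 and Pola1 start new strands, Pold1 extends them on the Pcna clamp that Rfc2 helps to load, Fen1 and Lig1 join the fragments, and Rrm1, Rrm2 and Tyms make the nucleotides. Uhrf1 helps to copy DNA methylation and Ung removes uracil. Later in the cycle, Cdk1 with the cyclins Ccna2, Ccnb1 and Ccnb2 drives entry into mitosis, Top2a untangles the chromosomes, Aurka, Tpx2, Kif11, Kif23 and Nusap1 act on the spindle, and Aurkb with Birc5, Bub1, Cenpe and Cenpf act at the centromere and kinetochore. Ube2c and Cdc20 belong to the machinery that destroys the cyclins, Mki67 coats mitotic chromosomes, and Hmgb2 is a chromatin protein that many dividing cells make in quantity. In the mammary gland at puberty, TEBs are known as the sites of fastest growth.

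Of 1419 deposited cells, 1318 passed the filters, 67 to 88 per fragment, with 1829137 to 3923111 unique molecular identifiers (UMIs, counted molecules) per fragment. Clustering without the members and other cell cycle genes gave 294 basal-like cells (97 nipple, 115 duct, 82 TEB), 426 ER+ luminal-like cells (43, 211 and 172), 178 ER- luminal-like cells (48, 81 and 49) and 252 fibroblast-like cells (116, 38 and 98). The basal-like cells of nipple and duct lay in one cluster, with 96 and 115 cells, and those of TEBs in another, with 82 cells and 1 nipple cell. The 9 basal markers together were at 17373 to 19796 normalised counts (CPM, UMIs scaled to the same total in every fragment) in nipple, 20404 to 26065 in duct and 4427.6 to 8180.4 in TEB basal-like cells, so the TEB class held its labelled markers at a lower level. The leading genes of that TEB cluster were not basal markers, and these classes were rebuilt here, so they may differ from those of the study. Median depth in basal-like cells was 21458 UMIs per cell in nipple, 23039 in duct and 43900 in TEB. Fragments reuse the same well barcodes by design (95 barcodes, 33 of them in all 16 fragments).

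The members lie on 17 chromosomes, with at most 6 on any one. Their promoters were read from RefSeq (GRCm38.p6, from 250 bases before to 50 bases after each start), in a promoter table matched by symbol. There, 16 of the 19 mitosis genes and 18 of the 21 replication genes were matched, and Aurkb, Ccna2, Tpx2, Gins2, Mcm4 and Rfc2 were not. Motifs were searched on both strands as TTTGAA or TTCGAA for the CHR element, CCAAT for the CCAAT box, and TTTGGCGC, TTTCCCGC, TTTGGCGG or TTTCGCGC for E2F. Genes were counted once however many matches they held, since the E2F strings can overlap each other within one site. A CHR match was in 12 mitosis genes (75.0%) and 3 replication genes (16.7%), against 21.7% of all 27025 genes. A CCAAT box was in 14 mitosis genes (87.5%), 11 replication genes (61.1%) and 41.1% of all genes. An E2F match was in 1 mitosis gene (6.25%, Cdk1), 10 replication genes (55.6%) and 2.7% of all genes. The letters are a description and do not show that a factor binds there.

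**Figure D1:**
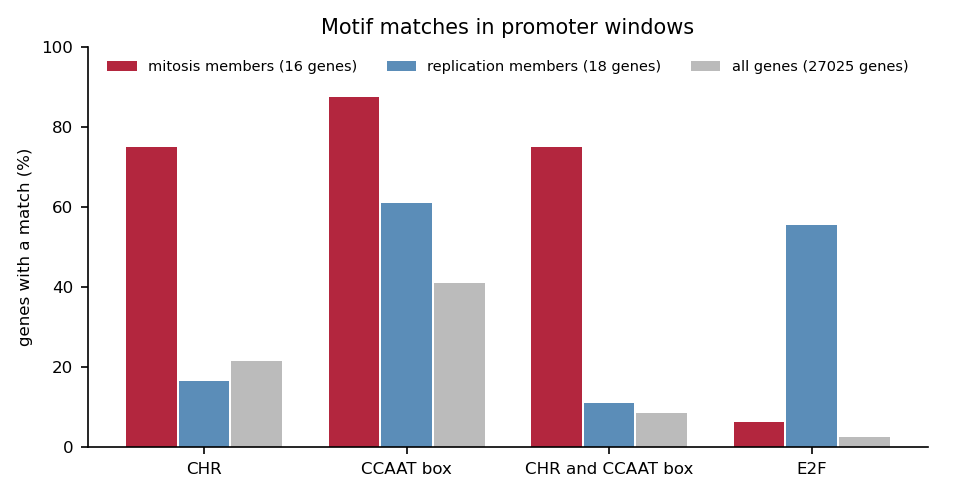
Share of genes (%, vertical axis) with a match to each motif in the promoter window, for the 16 matched mitosis genes, the 18 matched replication genes and all 27025 genes. CHR matches were in 75.0% of mitosis genes and 16.7% of replication genes, and E2F matches in 6.25% and 55.6%.

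The mitosis windows below are 30 bases around a CHR match (capitals) of Cdk1, Ube2c, Ccnb2, Top2a and Hmgb2, shown because these are 5 of the 6 mitosis genes with the smallest p-values between nipple and TEB in basal-like cells. The other of the 6, Birc5, held no match to any of the 3 motifs in its window. They are written 5′ to 3′ along each gene. Their positions are chr10:69352910-69352939 (minus strand), chr2:164769888-164769917 (plus), chr9:70421533-70421562 (minus), chr11:99024195-99024224 (minus) and chr8:57511801-57511830 (plus).
Cdk1: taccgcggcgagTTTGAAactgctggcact
Ube2c: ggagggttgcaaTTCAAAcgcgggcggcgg
Ccnb2: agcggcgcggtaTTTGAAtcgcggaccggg
Top2a: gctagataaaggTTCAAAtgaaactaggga
Hmgb2: ggactctccgggTTTGAAtaatcctccaca

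The replication windows show an E2F match in capitals for Mcm5, Mcm7, Mcm3 and Lig1, which were all higher in TEB than in nipple basal-like cells, and for Mcm6, which was not called there. They lie at chr8:75109345-75109374 (plus strand), chr5:138171849-138171878 (minus), chr1:20820263-20820292 (minus), chr7:13278841-13278870 (plus) and chr1:128359734-128359763 (minus). Uhrf1, also called, held a match too, and so did Cdt1 and Pola1, which like Mcm6 were tested without a call. Fen1, Mcm2, Prim1, Rrm1, Rrm2 and Tyms were called and held none. A match was thus present in genes with and without a call, and absent from several called genes.
Mcm5: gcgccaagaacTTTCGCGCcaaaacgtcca
Mcm7: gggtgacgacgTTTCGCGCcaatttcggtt
Mcm3: cgggaaaacttgggaagtTTTGGCGCcaag
Lig1: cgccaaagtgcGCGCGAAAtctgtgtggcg
Mcm6: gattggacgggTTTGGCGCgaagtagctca

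The summed level of each gene set was first compared between locations within each class, as CPM of the UMIs pooled per fragment, for fragments with at least 5 cells of the class. In basal-like cells the 19 mitosis genes together were at 106 ± 45.1 CPM in nipple (SD, n = 4 fragments), 672 ± 224 in duct (n = 6) and 1782 ± 621 in TEB (n = 6). The 3 locations did not overlap, with ranges of 62.8 to 157, 435 to 988 and 1048 to 2601 CPM. The 21 replication genes were at 345 ± 83.2 CPM in nipple, 550 ± 193 in duct and 1286 ± 497 in TEB, and their fragments overlapped between neighbouring locations.

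In ER- luminal-like cells the summed replication genes were apart between nipple and TEB only. They were at 397 ± 212 CPM in nipple (n = 4), 1077 ± 438 in duct (n = 6) and 2007 ± 855 in TEB (n = 4), with no overlap between nipple (171 to 647 CPM) and TEB (1298 to 3180 CPM), while duct (558 to 1652 CPM) overlapped with both. Their mitosis genes were at 1217 ± 877, 1236 ± 364 and 1801 ± 1218 CPM, and the fragments of all 3 locations overlapped. In ER+ luminal-like cells neither set separated the locations, with mitosis genes at 399 ± 96.4 CPM in nipple, 394 ± 55.7 in duct and 495 ± 120 in TEB and replication genes at 464 ± 171, 505 ± 65.8 and 630 ± 103.3 CPM. In fibroblast-like cells the mitosis genes were at 130 ± 34.6 CPM in nipple (n = 4), 83.7 ± 47.6 in duct (n = 4) and 400 ± 426 in TEB (n = 5), where the SD exceeded the mean. These sums are descriptions and were not tested, and sums of UMIs cannot tell apart more cells that carry a transcript from more transcript per cell.

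**Figure D2:**
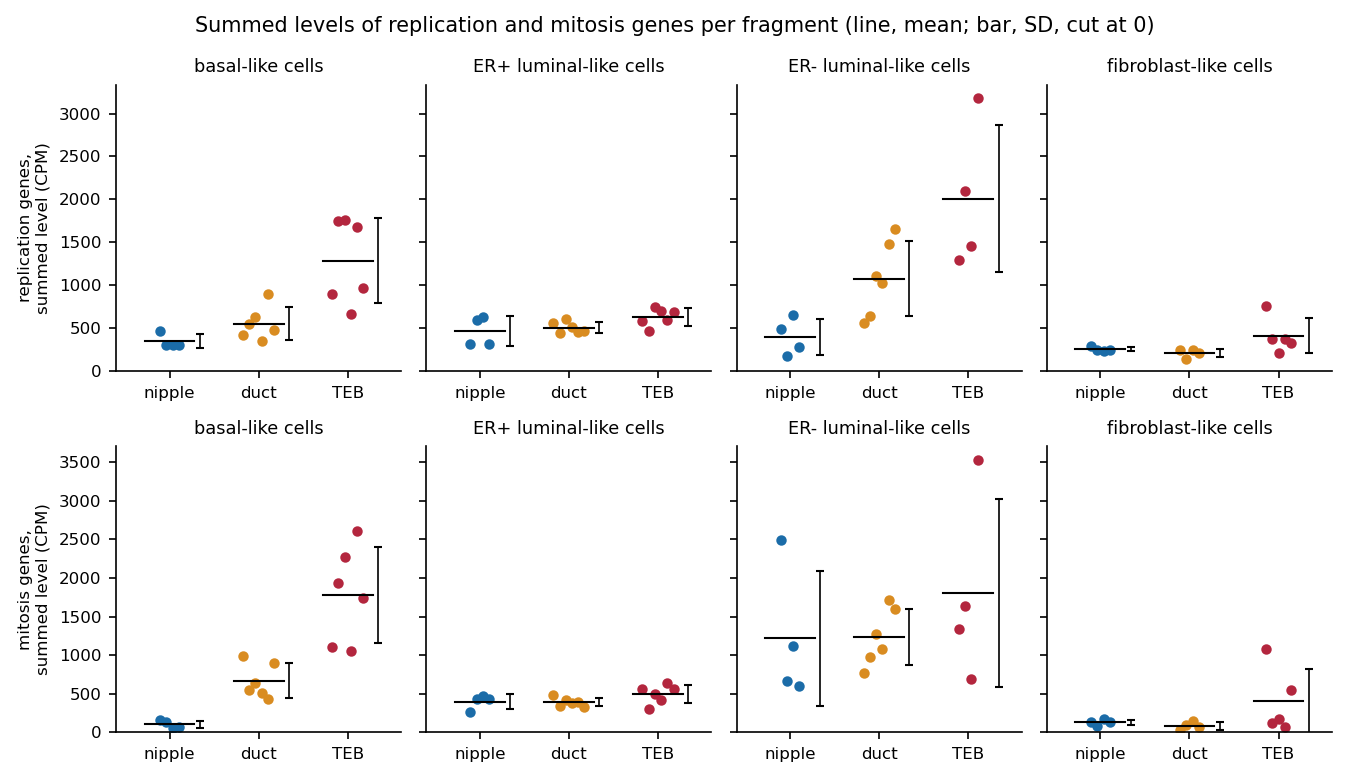
Summed level (CPM, vertical axis) of the 21 replication genes and the 19 mitosis genes in each fragment, by location and class; points are fragments, lines means and bars SD, cut at 0. In basal-like cells the mitosis sums of nipple (62.8 to 157 CPM), duct (435 to 988) and TEB (1048 to 2601) do not overlap.

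The main comparison asked how each member differed between nipple, duct and TEB within a class. UMIs were summed per fragment and class and tested across all genes with edgeR's quasi-likelihood test, adjusted by Benjamini and Hochberg's method, and called at an adjusted p under 0.05. Differences are log2 values of the first location minus the second, so a negative value is higher in the second. Each SE is the size of the difference divided by the square root of the test's F statistic, and is approximate where counts are low.

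In basal-like cells most mitosis genes were higher in TEB than in nipple. Of the 19, 18 passed the filter on low counts and 17 of these were called higher in TEB, none in nipple, where 9.81% of all 7316 genes tested were called higher in TEB (18.7% in either direction). The exceptions were Cenpf (-2.52, adjusted p = 0.109) and Aurka, which had too few UMIs for the test. The median difference of the 18 was -5.27, against -0.054 over all genes tested. In 12 of the 18 the nipple and TEB fragments did not overlap (14.9% of all genes). Genes absent from one location pass the filter only through the location where they are high, so these counts describe the set and are not support for it. With cells put into classes by marker lists alone, 18 members in place of 29 were called between nipple and TEB, all 18 also called in the main classes.

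Cdk1, the kinase that drives entry into mitosis, was at 3.98, 1.66, 2.51 and 1.91 CPM in the 4 nipple fragments. It ranged from 17.2 to 75.8 CPM over the duct fragments (median 33.6) and from 41.0 to 246 CPM over the TEBs (median 163). Every duct fragment and every TEB was above every nipple fragment, while duct and TEB overlapped. All 3 differences passed the test: -5.87 for nipple against TEB (SE 0.66, adjusted p = 2.9e-08), -3.81 for nipple against duct (SE 0.66, adjusted p = 0.00029) and -2.06 for duct against TEB (SE 0.41, adjusted p = 0.00046).

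Ube2c and Ccnb2 separated nipple from both other locations, and their differences between duct and TEB missed the threshold. Ube2c, an enzyme of cyclin destruction, was at 3.98, 9.95, 0 and 1.91 CPM in nipple, 25.2 to 165 CPM in duct with a median of 112, and 89.7 to 294 CPM in TEB with a median of 145. Neither duct nor TEB overlapped with nipple, and the differences were -5.16 to TEB (SE 0.60, adjusted p = 7.3e-08) and -4.57 to duct (SE 0.60, adjusted p = 3.4e-06). Between duct and TEB the Ube2c difference was -0.59 (SE 0.37, adjusted p = 0.37). Ccnb2, a mitotic cyclin, was at 0, 0, 0 and 3.83 CPM in nipple, 16.0 to 77.6 in duct with a median of 34.9, and 34.6 to 102 in TEB with a median of 71.5. Its nipple fragments held 2 UMIs in all, and the ratio to nipple was 91.5 in TEB (95% counting interval 25.1 to 759, exact) and 41.8 in duct (11.3 to 349). Both Ccnb2 differences from nipple passed the test (adjusted p = 3.8e-06 and 0.00019) and that between duct and TEB did not (-0.76, SE 0.49, adjusted p = 0.38).

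Birc5 and Top2a had no UMI in at least 3 of the 4 nipple fragments. Birc5, the survivin subunit of the Aurkb complex, had no UMI in any nipple fragment. It was at 2.46 to 60.7 CPM in duct with a median of 18.8, and 17.6 to 169 CPM in TEB with a median of 82.4, so that nipple was below both and duct and TEB overlapped. Set against 3 UMIs in all nipple fragments together, the floor used where none was counted, Birc5 was at least 78.3-fold higher in TEB and at least 16.3-fold higher in duct. All 3 Birc5 comparisons passed the test (adjusted p = 2.1e-06, 0.00065 and 0.028, the last with a duct minus TEB difference of -1.85, SE 0.56). Top2a was at 0, 0, 0 and 7.66 CPM in nipple, 4.57 to 108 in duct with a median of 48.6, and 31.2 to 185 in TEB with a median of 145. The nipple value of 7.66 lay above the lowest duct fragment. The Top2a difference was -5.86 for nipple against TEB (SE 0.84, adjusted p = 3.1e-06) and -4.53 for nipple against duct (SE 0.85, adjusted p = 0.00065), while that between duct and TEB was not called (-1.33, SE 0.50, adjusted p = 0.089).

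Hmgb2 and Mki67 were present in nipple as well. Hmgb2 was at 125, 82.9, 45.2 and 40.2 CPM in nipple, 60.3 to 347 in duct with a median of 206, and 304 to 921 in TEB with a median of 655. Nipple overlapped with duct but not with TEB, and all 3 Hmgb2 differences passed: -3.11 for nipple against TEB (SE 0.42, adjusted p = 1.7e-05), -1.47 for nipple against duct (SE 0.41, adjusted p = 0.033) and -1.64 for duct against TEB (SE 0.33, adjusted p = 0.002). Mki67, widely used as a marker of cycling cells, was at 0, 9.95, 5.02 and 7.66 CPM in nipple, 6.03 to 33.7 in duct and 9.59 to 113 in TEB. Its fragments overlapped between all locations, and only the difference between nipple and TEB passed the test (-3.40, SE 0.78, adjusted p = 0.0018).

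**Figure D3:**
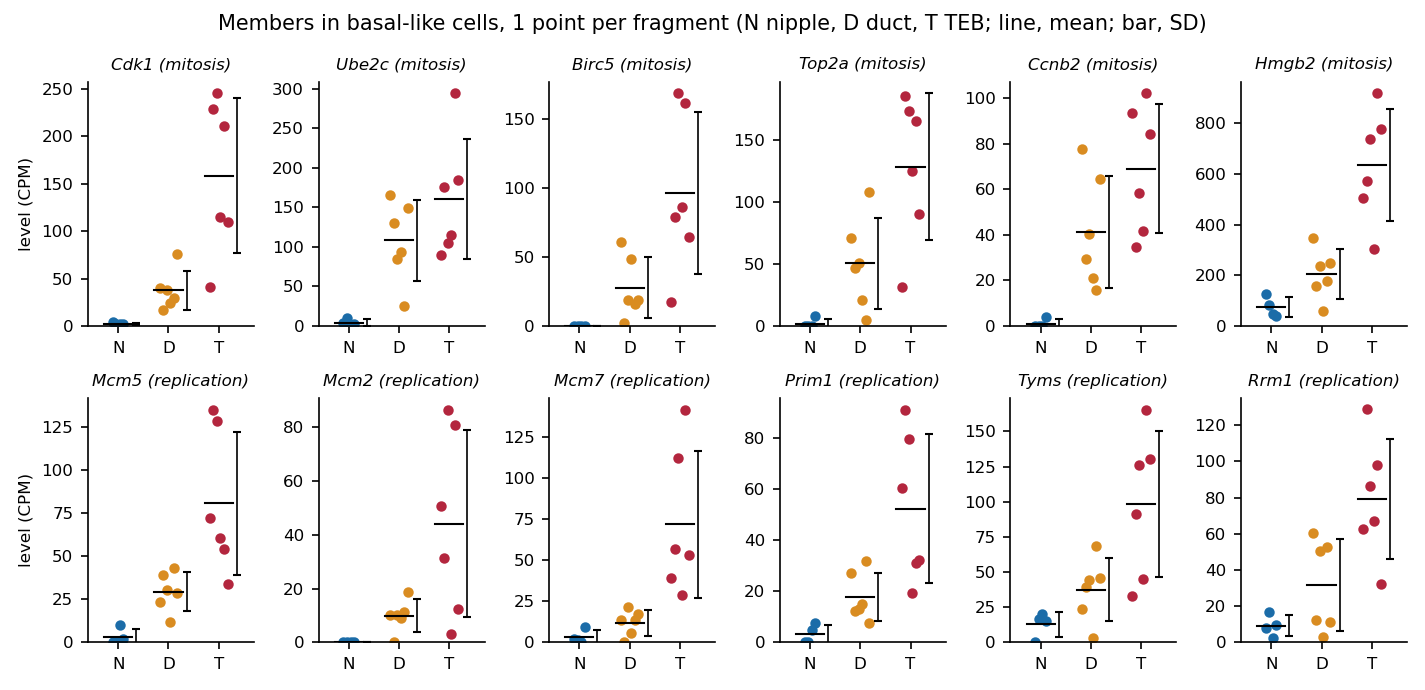
Level (CPM, vertical axis) of mitosis and replication genes in basal-like cells, with 1 point per fragment of nipple (N), duct (D) and TEB (T), a line for the mean and a bar for the SD. Nipple fragments of Cdk1 (1.66 to 3.98 CPM) lie below every duct fragment (17.2 CPM or more) and every TEB.

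Replication genes of basal-like cells were called higher in TEB than in nipple in 12 of 19 tested, of the 21, again with none higher in nipple, where 9.81% of all genes were called higher in TEB. The median over the 19 was -3.03, and the nipple and TEB fragments of 12 did not overlap (14.9% of all genes). The 12 called were Mcm2, Mcm3, Mcm5 and Mcm7 of the helicase, Prim1, Rfc2, Fen1 and Lig1 of strand synthesis and joining, Rrm1, Rrm2 and Tyms of nucleotide supply, and Uhrf1. The 7 tested without a call were Cdt1, Gins2, Mcm4, Mcm6, Pcna, Pola1 and Ung, and Cdc6 and Pold1 were too low to test. The 6 helicase subunits were therefore split, with Mcm4 at -1.40 and Mcm6 at -0.87, both short of the threshold.

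Mcm5 was at 0, 0, 10.05 and 1.91 CPM in nipple, 12.1 to 43.5 in duct with a median of 29.3, and 34.2 to 135 in TEB with a median of 66.5. Nipple lay below both other locations, and the Mcm5 difference was -4.82 to TEB (SE 0.79, adjusted p = 2.2e-05) and -3.40 to duct (SE 0.78, adjusted p = 0.0053). Mcm2 had no UMI in nipple, 0 to 18.9 CPM in duct with a median of 10.1, and 3.20 to 86.6 CPM in TEB with a median of 41.1. Mcm2 was thus at least 36.5-fold higher in TEB and at least 7.02-fold higher in duct than that floor of 3 UMIs in nipple, and both comparisons passed the test (adjusted p = 0.00026 and 0.021). Mcm7 set TEB apart from both other locations. It was at 1.99, 1.66, 0 and 9.57 CPM in nipple, 0 to 21.6 in duct with a median of 13.6, and 28.8 to 141 in TEB with a median of 54.9, with no TEB overlapping a nipple or duct fragment. The Mcm7 difference was -4.32 between nipple and TEB (SE 0.85, adjusted p = 0.00029) and -2.53 between duct and TEB (SE 0.63, adjusted p = 0.0056).

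The other replication genes with the smallest p-values were also higher in TEB than in nipple, without overlap. Prim1, the primase subunit, was at 0, 0, 5.02 and 7.66 CPM in nipple, 7.58 to 32 in duct and 19.2 to 91.1 in TEB (nipple minus TEB -3.99, SE 0.88, adjusted p = 0.0012). Rrm1, the large subunit of ribonucleotide reductase, was at 7.96, 16.6, 2.51 and 9.57 CPM in nipple, 3.01 to 60.7 in duct and 32.3 to 129 in TEB (-3.03, SE 0.68, adjusted p = 0.0014). Tyms, which makes thymidylate, was at 0, 16.6, 20.1 and 15.3 CPM in nipple, 3.01 to 68.6 in duct and 33.2 to 165 in TEB (-2.93, SE 0.66, adjusted p = 0.0014). For these 3 genes, duct overlapped with both other locations and no comparison with duct was called. Pcna, the sliding clamp of DNA polymerase, stood apart from them. It was at 167, 121, 161 and 55.5 CPM in nipple, 97.8 to 162 in duct and 99.1 to 269 in TEB, with overlap between all locations and a nipple minus TEB difference of -0.35 (SE 0.33, adjusted p = 0.52).

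Fewer members were called in the comparisons with duct. Between nipple and duct, 10 mitosis genes and 2 replication genes (Mcm2 and Mcm5) were called, all higher in duct, where 4.06% of all genes were (6.29% in either direction), and 7 mitosis genes and 1 replication gene did not overlap (6.82% of all genes). The 10 were Birc5, Ccnb1, Ccnb2, Cdk1, Hmgb2, Kif11, Kif23, Top2a, Tpx2 and Ube2c. The median nipple minus duct difference was -4.36 for mitosis genes, or -3.24 with genes of 3 or fewer nipple UMIs at their bound or ratio, and -1.43 for replication genes. Between duct and TEB, 6 mitosis genes (Aurkb, Birc5, Cdc20, Cdk1, Hmgb2 and Nusap1) and 4 replication genes (Lig1, Mcm3, Mcm7 and Rrm2) were called, all higher in TEB, as were 3.91% of all genes (10.4% in either direction), and Mcm7 was the 1 member without overlap (6.14% of all genes). Nusap1 had the largest of these duct minus TEB differences (-3.90, SE 1.11, adjusted p = 0.017), and among replication genes Rrm2 did (-2.63, SE 0.65, adjusted p = 0.0052). Whether the gene sets differ from each other in these counts was not tested. Without TEB fragment 33, or without TEB fragment 42, 6 members in place of 10 were called between duct and TEB.

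Several measures moved with location in basal-like cells. Fibroblast markers summed to 927.83 to 1874.6 CPM in nipple, 263.16 to 455.93 in duct and 231.17 to 488.8 in TEB, and shared luminal markers to 3979.6 to 5137, 6440.4 to 8532 and 2461.3 to 3689.6 CPM. All 7 fibroblast markers and all 4 shared luminal markers were detected in each location, and their part in the result was not tested. The 4 lymphocyte markers among the gene rows were at 0 in all fragments. The share of a fragment's pooled profile that cells may hold from other wells, estimated from markers of other classes, averaged 7.51% in nipple, 11.1% in duct and 8.91% in TEB. By that estimate 54.1 of the 222 mitosis UMIs in nipple basal-like cells could come from other wells, and 6 of the 19 mitosis genes were at or below it there, 4 of them with no UMI. With each cell thinned to 5000 UMIs, 3 members were left to test in basal-like cells, and 2 of them were still called between nipple and TEB.

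In ER- luminal-like cells the members that passed the edgeR test were replication genes. Of 19 tested, 9 were called higher in TEB than in nipple and none in nipple, where 1.59% of all 5706 genes tested were higher in TEB (4.57% in either direction). The 9 were Lig1, Mcm2, Mcm5, Mcm6, Mcm7, Rfc2, Rrm1, Rrm2 and Ung. Their set's median was -2.49, against -0.029 over all genes, and fragments of 8 replication genes did not overlap (11.6% of all genes). Of 12 mitosis genes tested, none was called between nipple and TEB by edgeR, 1 was by DESeq2, and 1 had an unadjusted p under 0.05 by edgeR. The last was Ccna2, the cyclin of S and G2 phase, at 8.93, 0, 0 and 0 CPM in nipple, 8.86 to 52.3 in duct and 69.4, 52, 4.57 and 46.7 CPM in TEB (adjusted p = 0.055). The other 7 mitosis genes did not pass the low-count filter, so the test says nothing of them. Of these, Aurkb and Bub1 had 0 nipple UMIs, against 91 and 30 in TEB. Nusap1 had 2 against 64 (ratio 21.7, 5.76 to 183) and Kif23 had 3 against 32 (7.23, 2.26 to 36.9). These genes are given for their low nipple counts, so the choice itself favours TEB. They say nothing of the direction of the set, and Aurka, Ccnb1 and Cenpe are not compared here. The intervals cover counting error only, and the UMIs came unevenly from the TEBs. Of the mitosis genes other than Hmgb2, TEB fragment 42 held 1382 UMIs, and fragments 32, 33 and 34 held 224, 720 and 40.

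Mcm5 in ER- luminal-like cells was at 0, 4.75, 7.22 and 0 CPM in nipple, 0 to 98.6 in duct (median 46.7) and 69.4, 105, 64.0 and 247 CPM in TEB. TEB lay above nipple throughout, and Mcm5 was the one member called between nipple and duct as well (-5.10 to TEB, SE 0.98, adjusted p = 0.0013; -3.74 to duct, SE 0.95, adjusted p = 0.033). Between nipple and duct 0.543% of all genes were called higher in duct (1.63% in either direction). Mcm7 was at 0, 4.75, 16.8 and 3.17 CPM in nipple, 6.54 to 104 in duct and 72.9, 130, 96.0 and 173 CPM in TEB (nipple minus TEB -4.02, SE 0.83, adjusted p = 0.0029). Mcm6 was at 116, 0, 62.6 and 76.0 CPM in nipple, 88.6 to 232 in duct and 201, 233, 261 and 361 CPM in TEB. Neither Mcm7 nor Mcm6 overlapped between nipple and TEB, and the Mcm6 difference was -2.04 (SE 0.50, adjusted p = 0.014). Mcm6 was thus called in ER- luminal-like but not in basal-like cells; the test of that difference between classes is given below.

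Mcm2 was at 0, 0, 16.8 and 12.7 CPM in the nipple ER- luminal-like cells, 22.1 to 53.8 in duct and 79.8, 65.7, 27.4 and 110 CPM in TEB. Nipple lay below both other locations, as for 3 replication genes against duct (3.77% of all genes), and the nipple minus TEB difference of Mcm2 was -3.06 (SE 0.82, adjusted p = 0.025). Ung, the uracil glycosylase, had 1 nipple UMI, with a ratio of TEB to nipple of 82.7 (14.6 to 3291), and Rrm2 had 2, with a ratio of 53.5 (14.6 to 446). Pcna was at 80.4, 75.9, 140 and 72.9 CPM in nipple, 68.7 to 250 in duct and 122, 219, 174 and 414 CPM in TEB, overlapping and not called (nipple minus TEB -1.33, SE 0.43, adjusted p = 0.074). The count of 9 members called between nipple and TEB fell to 5 without TEB fragment 33 and to 2 without TEB fragment 42. No member was called between duct and TEB, where 1.14% of all genes were. At an unadjusted p under 0.05 there were 4 (Mcm3, Mcm4, Mcm5 and Ung), DESeq2 called 0, and the duct and TEB fragments of Gins2, Mcm3 and Ung did not overlap (4% of all genes).

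The mitosis genes of nipple ER- luminal-like cells came largely from 2 fragments. Cdk1 was at 138, 0, 57.7 and 0 CPM in nipple, 29.4 to 102 in duct and 52.1, 112, 36.6 and 236 CPM in TEB. Top2a was at 84.9, 0, 130 and 0 CPM, 19.9 to 120 CPM and 27.8, 68.4, 4.57 and 291 CPM in these locations. The same nipple fragments held the Birc5 UMIs, at 49.1, 0, 128 and 0 CPM, with 32.7 to 190 CPM in duct and 34.7, 118, 41.1 and 184 CPM in TEB. Mki67 was at 31.3, 0, 19.2 and 0 CPM in nipple, 4.43 to 82.2 in duct and 10.4, 53.4, 0 and 202 CPM in TEB. For all 4 genes TEB and nipple overlapped, with adjusted p between 0.31 and 0.78. Hmgb2 was at 799, 660, 565 and 599 CPM in nipple, 237 to 902 in duct and 562, 653, 512 and 1380 CPM in TEB (-0.25, SE 0.39, adjusted p = 0.82). One cell held 60.9% of the UMIs of the 18 other mitosis genes in nipple ER- luminal-like cells. Basal markers in ER- luminal-like cells summed to 1721.2 to 3328.5 CPM in nipple, 189.34 to 676.75 in duct and 45.433 to 188.49 in TEB, with 8 of the 9 detected in each. The class's own markers summed to 14451 to 17312 CPM in nipple, 8790.5 to 15576 in duct and 7881.4 to 13173 in TEB, without overlap between nipple and TEB, and fibroblast markers to 905.54 to 1526.6, 128.33 to 343.87 and 118.87 to 288.78 CPM, with all 7 detected in each. The part of these markers in the results of this class was not tested.

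In ER+ luminal-like cells no member was called between any locations by edgeR's test, with 19 replication and 9 mitosis genes tested. Of all 8770 genes tested, 5.53% were called between nipple and TEB, 2.01% for nipple against duct and 1.65% for duct against TEB. At an unadjusted p under 0.05 there were 5, 3 and 1 members in these comparisons, and DESeq2 called 3 between nipple and TEB. The nearest to the threshold was Top2a, at 0, 0, 5.24 and 0 CPM in nipple, 2.63 to 14.3 in duct and 5.94 to 42.7 in TEB. Top2a was 1 of 2 members that did not overlap between nipple and TEB, as 6.52% of all genes did not, and its 3 nipple UMIs gave a ratio of 10.9 (3.64 to 53.6), with adjusted p = 0.058 by edgeR. Without nipple fragment 23, 3 members were called between nipple and TEB, and without nipple fragment 21, 2 were.

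Mcm6 in ER+ luminal-like cells was at 16.3, 52, 80.4 and 29.0 CPM in nipple, 53.0 to 78.2 in duct and 48.3 to 134 in TEB (nipple minus TEB -1.11, SE 0.36, adjusted p = 0.061), with overlap. Tyms was at 18.1, 3.25, 5.24 and 14.5 CPM in nipple, 16.1 to 33.1 in duct and 19.0 to 47.4 in TEB, the other of these 2 (-1.63, SE 0.54, adjusted p = 0.072). Rfc2, of the clamp loader, was at 56.0, 19.5, 55.9 and 49.9 CPM in nipple, 15.4 to 41.2 in duct and 35.9 to 65.6 in TEB (duct minus TEB -0.93, SE 0.33, adjusted p = 0.2). Mcm2, Pcna and Hmgb2 overlapped throughout. Mcm2 was at 36.1, 22.8, 21 and 1.61 CPM in nipple, 13.8 to 32.3 in duct and 8.62 to 26.9 in TEB (0.19, SE 0.59, adjusted p = 0.92). Pcna was at 75.9, 117, 108 and 69.3 CPM in nipple, 43 to 132 in duct and 70.8 to 148 in TEB. Hmgb2 was at 170, 332, 402 and 332 CPM in nipple, 213 to 312 in duct and 201 to 484 in TEB (-0.15, SE 0.22, adjusted p = 0.78).

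The mitosis genes were low in ER+ luminal-like cells apart from Hmgb2. Mki67 was at 0, 0, 1.75 and 9.66 CPM in nipple, 0 to 13.5 in duct and 0 to 26.1 in TEB. Birc5 was at 0, 0, 0 and 8.05 CPM in nipple, 5.38 to 17.3 in duct and 0 to 13.4 in TEB. Aurka was at 16.3, 0, 1.75 and 0 CPM in nipple, 3.58 to 18.1 in duct and 3.95 to 34.8 in TEB. Cenpf ran the other way in its fitted value, at 57.8, 94.3, 10.5 and 14.5 CPM in nipple, 3.95 to 60.2 in duct and 0 to 32 in TEB, but did not pass the test (nipple minus TEB 1.26, SE 0.66, adjusted p = 0.31). All 4 overlapped between locations. The sums of ER+ markers in these cells, 5685.9 to 7040.1 CPM in nipple, 5979.2 to 7016.3 in duct and 6033.9 to 7483.1 in TEB, overlapped too. Fibroblast markers in them did not overlap between nipple (897.72 to 2219.7 CPM) and duct (208.06 to 597.61) or TEB (167.8 to 370.06), with all 7 detected in each, and their part in the results was not tested.

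Fibroblast-like cells of nipple and TEB lay largely in different clusters. One held 86 nipple, 1 duct and no TEB cells, another 1, 3 and 64, a smaller one 0, 6 and 18, and the cluster that all locations shared 29, 28 and 16. Fibroblast markers summed to 35535 to 41042 CPM in nipple, 28275 to 49376 in duct and 17455 to 32624 in TEB, without overlap between nipple and TEB, and the part of this split in the results was not tested. In this class, 10 replication genes and 3 mitosis genes passed the low-count filter and none was called, where 1.54% of all 8489 genes were called between nipple and TEB, 0.2% for nipple against duct and 0.271% for duct against TEB. At an unadjusted p under 0.05 there were 1, 2 and 5 members in these comparisons. DESeq2 called 0 members in each. Ccnb2 was at 25.9, 2.22, 0 and 0 CPM in nipple, 0, 6.03, 0 and 0 in duct and 105, 10.6, 12.0, 23.2 and 93.9 in TEB. No TEB overlapped with a duct fragment for Ccnb2 (adjusted p = 0.21) or Cenpf, the 2 members without overlap there (3.91% of all genes). Cenpf had no UMI in duct and was at 0, 1.11, 0 and 15.2 CPM in nipple and 79.3, 26.1, 3.00, 2.90 and 20.1 in TEB (adjusted p = 0.24 between duct and TEB).

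Mki67 and Top2a in fibroblast-like cells were found mainly in TEB fragment 31. Mki67 was at 151, 0, 1, 2.90 and 0 CPM in the 5 TEBs and 21, 0, 0 and 0 CPM in nipple, with no UMI in duct. Top2a was at 141, 2.90, 2, 0 and 33.5 CPM in TEB, 0, 0, 0.698 and 0 in nipple and 0, 0, 2.81 and 0 in duct, and neither gene was tested. One cell held 52% of the UMIs of the 18 mitosis genes other than Hmgb2 in TEB fibroblast-like cells, and one cell held 52.9% in nipple. Among replication genes, Pola1 was at 14, 32.1, 10.5 and 23.2 CPM in nipple, had no UMI in duct and was at 5.87, 61.9, 1, 17.4 and 0 CPM in TEB. Rfc2 was at 21.9, 2.22, 7.67 and 0.894 CPM in nipple, 33.3, 24.1, 30.9 and 68.1 in duct and 29.4, 33.8, 15, 29.0 and 6.71 in TEB. Tyms was at 15, 6.65, 0 and 17.9 CPM in nipple, 0, 0, 5.61 and 0 in duct and 58.7, 11.6, 5, 2.90 and 22.4 in TEB. Nipple and duct did not overlap for Pola1, Rfc2 and Pcna (8.36% of all genes), and no difference passed the test. Pcna (44.4 to 186 CPM) and Hmgb2 (0 to 157 CPM) were present in most fragments, and Mcm2 reached 24.6 CPM in 1 TEB and 0 in all duct fragments. Duct held 38 of these cells, in which 11 of 19 mitosis genes had no UMI and 13 were at or below the level that other wells could give.

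**Figure D4:**
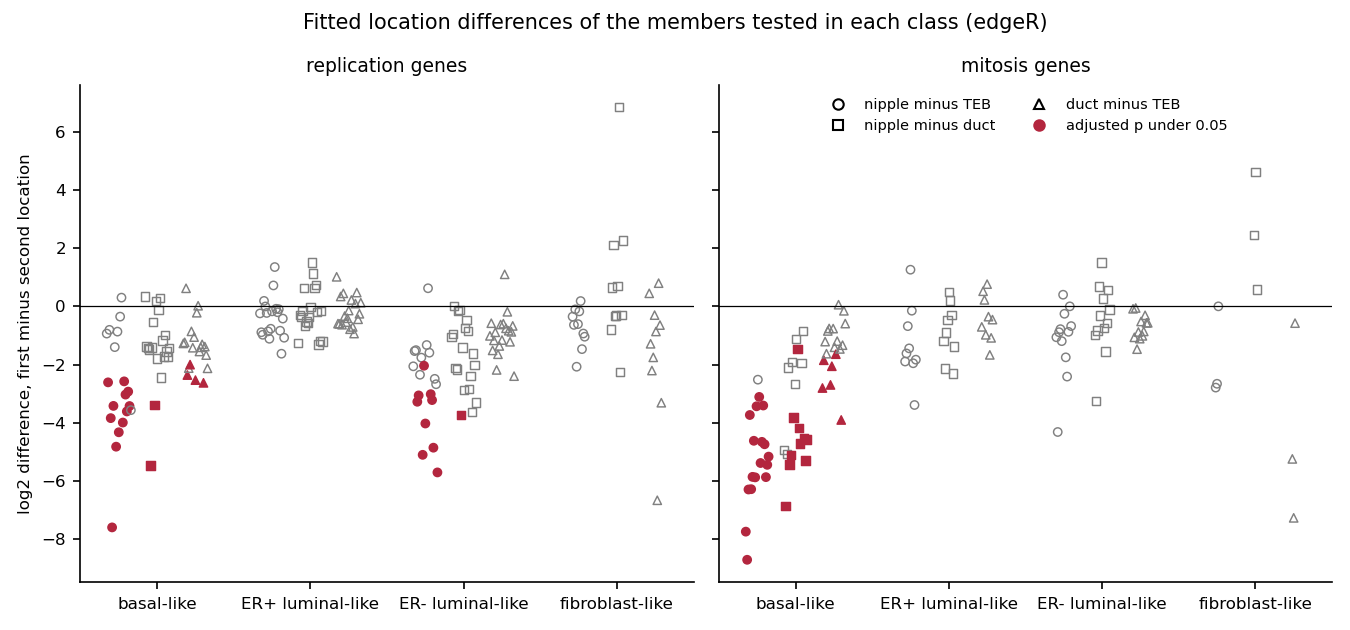
Fitted log2 difference of each member tested (first location minus second, vertical axis) in the 4 classes, with replication genes and mitosis genes in separate panels; marker shapes are the location pairs and red points have adjusted p under 0.05 (edgeR). Called members are in basal-like cells for both sets and in ER- luminal-like cells for replication genes, all below 0; genes with no nipple UMI have fitted values that are no bound.

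Whether location differences themselves differed between classes was tested with a class by location term and the fragment as a block. Between the basal-like and the ER+ luminal-like class 3 of 39 members tested passed (Hmgb2, adjusted p = 0.00201; Mcm2, adjusted p = 0.00999; Birc5, adjusted p = 0.0257), where 6.7% of all genes did. For Hmgb2 the nipple minus TEB difference of basal-like cells less that of ER+ luminal-like cells was -2.91. Between the basal-like and the ER- luminal-like class 3 of 35 passed (Hmgb2, adjusted p = 0.00102; Birc5, adjusted p = 0.00168; Cdk1, adjusted p = 0.0265), where 2.79% of all genes did, and the same value for Cdk1 was -4.57. Mcm6 was not among them. Between basal-like and fibroblast-like cells 1 of 36 passed (Hmgb2, adjusted p = 0.0443), where 3.34% did. Against ER+ luminal-like and fibroblast-like cells the counts lay near the share of all genes, so they say nothing particular to the members. None of 36 passed between the ER+ and ER- luminal-like cells, where 1.89% of all genes did and 6 members had an unadjusted p under 0.05. The terms of Mcm2 and Birc5 rest on 0 UMIs in nipple basal-like cells. Without duct fragment 61, 5 members passed between the basal-like and the ER+ luminal-like class, and the 1 member of the fibroblast-like comparison was lost without nipple fragment 22 or 23 or without TEB fragment 32, 33 or 34. For the other members, a call in one class and none in another is no sign that the classes differ.

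Counting cells gave another view of the sets. A cell was counted as positive with 3 or more UMIs of the 18 mitosis genes other than Hmgb2, or of the 21 replication genes, after each cell was thinned to 5000 UMIs. In basal-like cells 2.06% of nipple, 9.57% of duct and 28% of TEB cells were positive for mitosis genes, and 25.8%, 38.3% and 53.7% for replication genes. Over fragments the mitosis share was 0 to 4.35% in nipple, 5.26 to 13.3% in duct and 8.33 to 66.7% in TEB, so nipple lay below duct and TEB, which overlapped. Of the mitosis-positive basal-like cells, 2 of 2 in nipple, 10 of 11 in duct and 23 of 23 in TEB were also positive for replication genes, while 23, 34 and 21 cells were positive for replication genes alone. Without thinning the mitosis shares were 6.19%, 19.1% and 65.9% in the same order. The classes are ranges of a count: 0, 2 and 9 basal-like cells had 2 or 3 mitosis UMIs, and 25, 32 and 17 had 2 or 3 replication UMIs.

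In ER- luminal-like cells 6.38% of nipple, 19.8% of duct and 22.4% of TEB cells were positive for mitosis genes, and 23.4%, 39.5% and 67.3% for replication genes, with 1 nipple cell too shallow to be thinned. Over fragments with at least 5 such cells the replication share was 8.33 to 41.7% in nipple and 55.6 to 88.9% in TEB. The remaining TEBs, fragments 31 and 43 with 4 and 3 cells, were at 75% and 33.3%, and the last lies within the nipple range. The mitosis share was 0 to 16.7% in nipple and 0 to 44.4% in TEB, which overlapped. Of the mitosis-positive cells, 3 of 3, 15 of 16 and 11 of 11 were positive for replication genes. ER+ luminal-like cells were positive for mitosis genes in 2.33%, 8.53% and 4.65% and for replication genes in 20.9%, 27.5% and 28.5%. There, 7 of 18 mitosis-positive duct cells and 4 of 8 TEB cells were also positive for replication genes. In fibroblast-like cells 0.862% of nipple, 0 of 38 duct and 7.14% of TEB cells were positive for mitosis genes. These shares are descriptions over cells, which are not replicates, and UMIs from other wells add to all of them.

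**Figure D5:**
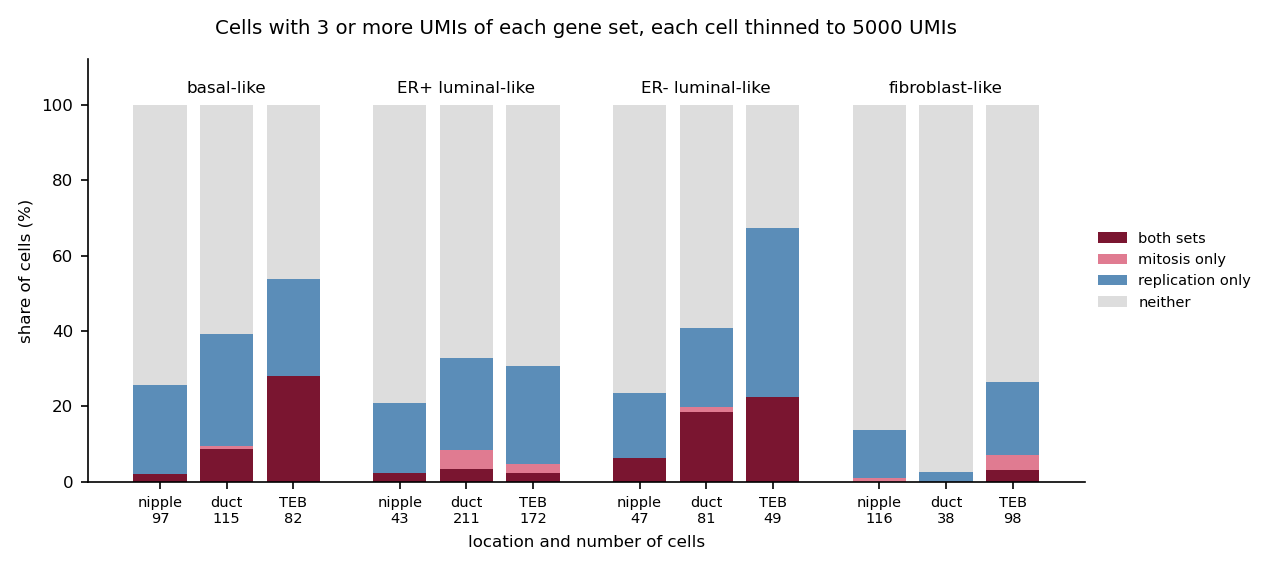
Share of cells (%, vertical axis) positive for mitosis genes, replication genes, both or neither (3 or more UMIs after thinning to 5000 UMIs per cell), by class and location with the number of cells. In basal-like cells the mitosis-positive share is 2.06% in nipple, 9.57% in duct and 28% in TEB, and nearly all of these cells are also positive for replication genes.

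Other genes of the same steps were counted from lists that hold no member. In basal-like cells, 11 of 24 other replication genes tested (43 listed) and 32 of 38 other mitosis genes tested (62 listed) were called higher in TEB than in nipple, where 9.81% of all genes were, and none higher in nipple. Their medians were -1.87 and -4.67. The other replication genes with the smallest p were Dut, which keeps uracil out of DNA (-3.28, SE 0.45, adjusted p = 1.4e-06), Hells, a chromatin remodeller (-4.01, SE 0.74, adjusted p = 0.000124), and Rpa2, which binds single-stranded DNA (-2.71, SE 0.62, adjusted p = 0.0017). The leading other mitosis genes were Cdca8, a partner of Aurkb and Birc5 (-6.65, SE 0.85, adjusted p = 3.8e-07), Cenpw of the centromere (-5.26, SE 0.70, adjusted p = 9.7e-07) and Prc1 of the spindle midzone (-4.78, SE 0.70, adjusted p = 3.8e-06).

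Genes of the G1 phase, before replication, showed a mixed picture in basal-like cells. Of 17 tested (26 listed), 7 were called higher in TEB and 1 in nipple, where 18.7% of all genes were called in either direction, with a median of -0.59. Ccnd2, a cyclin of G1, differed by -2.74 and Cdk4, its kinase partner, by -1.74, both higher in TEB (adjusted p = 4.1e-11 and 3.2e-07). Myc, a transcription factor that promotes growth, was the 1 gene higher in nipple (1.33, SE 0.28, adjusted p = 0.00074). In ER- luminal-like cells 3 of 21 other replication genes and 1 of 26 other mitosis genes tested were called higher in TEB than in nipple. Of all genes, 1.59% were. Of 11 G1 genes tested there, 2 were called higher in nipple and 1 in TEB (4.57% of all genes in either direction). In ER+ luminal-like cells 2 of 23 other mitosis genes tested were called higher in TEB than in nipple, as were 258 of all 8770 genes. Between these locations 5 of the 23 did not overlap (6.52% of all genes). No other gene of these 3 lists was called in ER+ luminal-like cells, and none in fibroblast-like cells, in any comparison.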

How the data were processed

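Single cells of 4 nipple, 6 duct and 6 TEB fragments were sorted into 96-well plates and sequenced by 3′ SMART-seq with ERCC spike-ins. By the study's methods the authors trimmed reads (Trim Galore, FastQC), extracted barcodes and UMIs (UMI-tools), kept uniquely mapped reads on mm10 (STAR), assigned them to genes (featureCounts) and deposited a table of raw UMI counts for each cell. No normalization was applied to it, and tool versions are not given in the sources used here. A 3′ count reads the end of a transcript, so levels are compared within genes.

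Cells with over 5% ERCC, under 5000 or over 120000 UMIs, or under 200 or over 6000 genes were left out. The 1318 cells kept were clustered with Seurat 5.3.0 (2000 variable genes without 195 cell cycle genes, 14 components, resolution 0.5, gene number, S and G2M scores and the ERCC share regressed out), and the 12 clusters were named from marker lists. Doublets were not called. A cluster with mast cell and endothelial genes and the pericyte-like cells were not analysed further. UMIs were summed per fragment and class with at least 5 cells and tested with edgeR 4.0.16 in R 4.3.3 (TMM, filterByExpr, quasi-likelihood with robust fitting, the 3 locations in 1 fit, Benjamini-Hochberg over all genes tested), since cells of one fragment are not replicates. Levels are CPM on TMM-scaled totals. Class by location terms used the fragment as a block. A location with 0 UMIs was set at a floor of 3 UMIs, and ratios to 1 to 3 UMIs carry exact 95% intervals; both cover counting error only. The edgeR steps were run on counts simulated from the basal-like and ER+ luminal-like sums, with changes in genes that passed the filter. ER- luminal-like and fibroblast-like sums were not simulated, and no result here rests on these runs. Members and gene lists were chosen with earlier results of these data known. Named genes were, in basal-like cells, the 6 mitosis and 6 replication members with the smallest p between nipple and TEB, in other classes the 3 of each with the smallest p in any comparison, Mki67, Top2a, Mcm2 and Pcna throughout, and members with a class by location term; from the other lists, the 3 with the smallest p in basal-like cells. Genes listed as called in a comparison, and those singled out for their size there, were named after their values were seen. Alternatives were DESeq2 1.42.0, other size factors, filters and class definitions, thinning, fits of 2 locations, a replicate block and leaving out each fragment. Duct and TEB fragments share the label numbers 31 and 32. Deviations from group means of same-numbered fragments correlated at 0.0019 and -0.0059 in basal-like cells and at -0.014 and -0.0047 in ER+ luminal-like cells. Those of differently numbered fragments correlated at 0.0067 and 0.015 in basal-like cells and at -0.0083 and -0.018 in ER+ luminal-like cells. Whether same-numbered fragments are related was not tested.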

Additional observations from a re-analysis of the deposited data

Results flagged for a closer look

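Within a location, 22 of 138 groups of fragments had 1 fragment far from the others by Dixon's criterion, which assumes normally distributed values. Of the 22, 21 lay above the rest, and in 10 of them all other fragments had no UMI. A group with UMIs in 1 fragment only is flagged whatever its level, and the 138 include groups without any spread. The count of 22 therefore cannot be set against a chance rate. In basal-like cells the flagged values were Top2a and Ccnb2 in nipple fragment 24 (7.66 and 3.83 CPM, 0 in the other nipple fragments). In ER+ luminal-like cells they were Top2a in nipple fragment 23 (5.24 CPM, others at 0) and in TEB fragment 33 (42.7 CPM, others at most 16.2), Aurka in nipple fragment 21 (16.3 CPM), Birc5 in nipple fragment 24 (8.05 CPM, others at 0) and Rfc2 in nipple fragment 22, the one low value (19.5 CPM, others 49.9 to 56.0). In ER- luminal-like cells they were Ccna2 in nipple fragment 21 (8.93 CPM, others at 0) and duct fragment 61 (52.3 CPM), Hmgb2 in TEB fragment 42 (1380 CPM, others 512 to 653), Pcna in nipple fragment 23 (140 CPM) and Birc5 in duct fragment 62 (190 CPM, others at most 86.6).

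Fibroblast-like cells gave the most such values. Mki67 was far from the others in nipple fragment 21 (20.95 CPM) and TEB fragment 31 (151 CPM), and Top2a in nipple fragment 23 (0.698 CPM), duct fragment 61 (2.81 CPM) and TEB fragment 31 (141 CPM). Ccnb2 was far in nipple fragment 21 (25.9 CPM) and duct fragment 52 (6.03 CPM), Cenpf in nipple fragment 24 (15.2 CPM), Pola1 in TEB fragment 32 (61.9 CPM) and Tyms in duct fragment 61 (5.61 CPM).

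The location differences of 4 members differed between classes by edgeR's class by location term: 3 of 39 tested for basal-like against ER+ luminal-like cells (6.7% of all genes), 3 of 35 against ER- luminal-like cells (2.79%) and 1 of 36 against fibroblast-like cells (3.34%). The first and last of these counts lay near the share of all genes. Hmgb2 differed between basal-like cells and ER+ luminal-like (adjusted p = 0.00201), ER- luminal-like (adjusted p = 0.00102) and fibroblast-like cells (adjusted p = 0.0443). Birc5 differed between basal-like and ER+ (adjusted p = 0.0257) and ER- luminal-like cells (adjusted p = 0.00168), Mcm2 between basal-like and ER+ classes (adjusted p = 0.00999), and Cdk1 between basal-like and ER- classes (adjusted p = 0.0265). The terms of Mcm2 and Birc5 rest on 0 UMIs in nipple basal-like cells.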

How the results depend on the processing

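Without one fragment at a time, basal-like calls ranged from 23 to 31 for nipple against TEB, 9 to 12 for nipple against duct and 6 to 12 for duct against TEB. In the same order, ER+ calls ranged from 0 to 3, 0 to 1 and 0, ER- calls from 2 to 10, 0 to 4 and 0, and fibroblast-like calls from 0 to 1, 0 and 0. Class by location calls ranged from 2 to 5 for basal-like against ER+, 2 to 4 against ER- and 0 to 2 against fibroblast-like cells. The lone ER- call between nipple and duct moved in either direction with 11 of the 16 fragments left out.

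With at least 10000 UMIs per cell, 2 ER+ members were called between nipple and TEB, 1 for nipple against duct, and 2 ER- members between nipple and duct; class by location calls were 5 (basal-like against ER+) and 0 (against fibroblast-like). Without regression before clustering, 1 ER+ member was called between nipple and TEB. The basal-like class then held 0 nipple, 107 duct and 1 TEB cells, so no basal-like comparison could be made. Classes from marker lists gave 18 basal-like calls between nipple and TEB and 3 between duct and TEB, 4 and 0 ER- calls (nipple and TEB, nipple and duct), and 0 class by location calls against ER+ and fibroblast-like cells. At least 10 cells per fragment left 5 basal-like calls between duct and TEB, 0 ER- calls between nipple and TEB, where 1 TEB fragment was left so that the count says nothing of stability, 1 fibroblast-like call there, and 0 class by location calls against ER+ and fibroblast-like cells. DESeq2 called 3 ER+ members between nipple and TEB and 4 ER- members between nipple and duct. Without a low-count filter, 1 ER+ and 3 fibroblast-like members were called between nipple and TEB, 6 ER- members between nipple and duct, and 5, 5 and 4 had class by location terms against ER+, ER- and fibroblast-like cells. Thinning to 5000 UMIs left 3 basal-like and 5 ER- members to test, of which 2, 0 and 2 were called in basal-like cells (nipple and TEB, nipple and duct, duct and TEB) and 2 and 0 in ER- cells, with 1 class by location call against each luminal class. With only the 2 locations in the fit, 0 ER- members were called between nipple and duct. The replicate block over label numbers 31 and 32 left 2 basal-like calls between duct and TEB and 0 in ER+ cells. These numbers are only shared labels. No other comparison shares numbers, so no such block could be fitted for nipple. Added after the data were seen, leaving out the cell with most mitosis UMIs of each class and location gave 4 and 2 ER+ calls (nipple and TEB, nipple and duct), 0 ER- calls between nipple and duct and 1 fibroblast-like call between nipple and TEB. The causes of these shifts were not tested beyond the fewer genes, cells or fragments each setting leaves.

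Of the values recomputed for single genes, gene sets and shares of cells, 2203 kept direction and side of the threshold or moved by less than the replicate spread (counts, by less than 1.5 times), 105 moved further, 20 passed and 14 lost the threshold, and 8 nipple minus TEB values changed sign: ER+ Cenpf to -0.18 (marker lists); basal-like Pcna to 0.26, ER+ Pcna to 0.023 and ER+ Hmgb2 to 0.027 (thinned); ER+ Mcm2 to -0.30 and ER+ Hmgb2 to 0.040 (without nipple fragment 21); fibroblast-like Pcna to 0.061 (without TEB fragment 31); and ER- Top2a to 0.61 (without TEB fragment 42). None of the 8 had been called. Over the fragments left out, these values ranged from -0.30 to 0.58 for ER+ Mcm2, -0.32 to 0.040 for ER+ Hmgb2, -0.32 to 0.061 for fibroblast-like Pcna and -1.88 to 0.61 for ER- Top2a. For members with no UMI in a location only a bound could be given, as for 4 of 19 mitosis genes in nipple basal-like and 11 in duct fibroblast-like cells. The counts of all members called, by location pair or by class by location term, were recomputed apart from these values. Of them, 349 were unchanged or moved by at most 1.5 times, and 70 moved further.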

Other observations

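Myeloid-like cells, which enter no comparison above, also held UMIs of both gene sets. Their replication genes summed to 577 CPM in 12 nipple cells, 869 CPM in 25 duct cells and 967 CPM in 41 TEB cells. Their mitosis genes summed to 378, 503 and 476 CPM in the same cells. Few fragments held 5 or more of these cells, so no test was made.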
